A study of Mus musculus with 200 samples.

Results

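The 10 lens crystallin genes *Cryaa*, *Cryba1*, *Cryba2*, *Cryba4*, *Crybb1*, *Crybb3*, *Cryga*, *Crygb*, *Crygc* and *Crygd* were chosen by symbol, and all 10 of them were found among the 22033 genes of the expression tables. Expression was measured by 3SEQ, which sequences the 3′ ends of polyadenylated transcripts, in single whole mouse embryos at E11.5, freed of extra-embryonic material. F1 embryos came from both reciprocal crosses of the inbred strains C57BL6/J (B6) and Castaneus (Cast), with 8 embryos from B6 mothers (B6xCast, litters 3 and 5) and 8 from Cast mothers (CastxB6, litters 1 and 2). N2 embryos were bred by mating F1 animals with B6 in both directions, and 154 had deposited genotypes, 89 from B6 mothers mated to F1 males (B6xF1) and 65 from F1 mothers mated to B6 males (F1xB6). No embryo carried an engineered allele or received a treatment. At each autosomal gene an F1 embryo carries both alleles, and an N2 embryo is either heterozygous or homozygous for B6. Embryos were staged by somite number, which was labelled for 147 of the N2 embryos (42 to 57 somites, 29 litters) and for all but 3 of the F1 embryos.

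Crystallins are the bulk soluble proteins of the lens and give it its transparency and refractive power. The alpha crystallins are small heat shock proteins that act as chaperones, whereas the beta and gamma crystallins form one structural superfamily. In the mouse embryo the lens vesicle pinches off from the surface ectoderm, its posterior cells elongate into primary fiber cells and its anterior cells remain an epithelium. Alpha crystallin is known as an early marker of the vesicle, and beta and gamma crystallins as markers of fiber differentiation. *Cryaa* encodes αA-crystallin, *Cryba1*, *Cryba2* and *Cryba4* encode acidic beta crystallins, *Crybb1* and *Crybb3* encode basic beta crystallins, and *Cryga* to *Crygd* encode gamma crystallins.

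The 4 gamma genes lay in tandem on the minus strand of chromosome 1 (mm9), from *Crygd* (65108446 to 65110026) through *Crygc* (65118099 to 65120263) and *Crygb* (65126804 to 65128862) to *Cryga* (65146963 to 65149947), within 41502 bases. *Cryba2* lay on chromosome 1 at 74936508 to 74939717, *Cryba1* on chromosome 11 at 77532117 to 77538785 and *Cryaa* on chromosome 17 at 31814878 to 31818667. *Cryba4* (112675513 to 112681538) and *Crybb1* (112684835 to 112698605) are divergent neighbors on chromosome 5 with 3297 bases between them. *Crybb3* followed on the same chromosome at 113504859 to 113510604. The 100 bases before the RefSeq transcription start are shown for the gamma genes, which differed most in timing, and for *Cryaa*, *Crybb1* and *Crybb3*, the members with the strongest stage or allele signals. Each is printed 5′ to 3′ on the strand of its gene (GRCm38.p6, a later build than mm9). Capitals mark 4 motifs, TATATA, then TATAAA, the run TTTGTG, and also TGCTGA, or the reverse complement of one of them. TGCTGA is a half-site recognised by MAF transcription factors:
Cryga, minus strand, chr1:65103364-65103463: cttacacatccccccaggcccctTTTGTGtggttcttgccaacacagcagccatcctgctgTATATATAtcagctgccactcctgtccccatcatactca
Crygb, minus strand, chr1:65082291-65082390: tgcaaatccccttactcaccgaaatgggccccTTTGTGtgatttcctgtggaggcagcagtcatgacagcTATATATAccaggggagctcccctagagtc
Crygc, minus strand, chr1:65073533-65073632: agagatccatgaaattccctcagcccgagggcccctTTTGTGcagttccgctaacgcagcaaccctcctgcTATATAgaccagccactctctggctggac
Crygd, minus strand, chr1:65063441-65063540: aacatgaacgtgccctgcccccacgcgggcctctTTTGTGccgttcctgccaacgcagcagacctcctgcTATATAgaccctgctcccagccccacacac
Cryaa, plus strand, chr17:31677831-31677930: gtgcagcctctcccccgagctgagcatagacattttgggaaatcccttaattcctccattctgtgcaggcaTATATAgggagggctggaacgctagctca
Crybb1, plus strand, chr5:112255720-112255819: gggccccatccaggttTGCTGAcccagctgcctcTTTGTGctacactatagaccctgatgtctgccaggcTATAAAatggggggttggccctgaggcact
Crybb3, minus strand, chr5:113081585-113081684: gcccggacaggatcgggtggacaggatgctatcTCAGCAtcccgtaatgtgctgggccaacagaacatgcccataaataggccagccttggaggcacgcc
The longest runs that all 4 gamma genes shared in the 250 bases before their starts were TATATA and TTTGTG, each 6 bases long. TATATA was also present in *Cryaa*, and was held in 5.25% of 32851 RefSeq promoter windows of that length, counting both strands. TTTGTG was present in the 4 gamma genes, *Crybb1* and *Crybb3*, and in 15.6% of all windows. TGCTGA occurred in 8 of the 10 members, all but *Crygb* and *Crygd*, and in 16.1% of all windows. TATAAA occurred in *Cryba1* and *Crybb1*, and in 12.4% of all windows. No 2 of these motifs overlap except where TATATA repeats within itself in *Cryga* and *Crygb*. These matches are a description of letters in the windows.

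Depth was 15703888 to 38234229 reads on genes in the F1 embryos and 245220 to 5370322 in the genotyped N2 embryos, so that 1 read corresponded to 0.435 RPM (reads of a gene for every 1000000 reads on genes) at the median N2 depth. Because 3SEQ reads come from transcript ends, RPM was not divided by gene length. Neither the depth (Spearman's rho = 0.00158) nor the share of haemoglobin reads (rho = -0.0211) followed somite number over the 147 N2 embryos. Lane accounted for 48.3% of the variance in somite number and litter for 79.7%, since littermates are close in age and were often sequenced together. The authors discarded reads whose second-best alignment was close to the best, which matters for near-identical paralogs. In the last 500 transcript bases, 37.9% of 76-base windows of *Crygd* lay within 3 mismatches of another crystallin transcript, mostly *Cryge*. The share was 20.2% for *Crygb* (closest to *Crygc*), 18.1% for *Crygc* (closest to *Crygb*), 0.706% for *Cryga* and 0 for the alpha and beta members, so the levels of *Crygb*, *Crygc* and *Crygd* are uncertain and may be low.

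*Crybb3* had the highest level in the N2 embryos, 39.3 RPM ± 32.6 (SD, n = 147), with a range of 1.26 to 165. *Cryaa* followed at 18.8 ± 15.3 RPM, then *Cryba4* at 10.4 ± 9.37, *Crybb1* at 10.1 ± 9.78, *Cryba1* at 8.90 ± 6.11 and *Cryga* at 6.72 ± 11.9 (mean RPM ± SD, n = 147 each). *Crygc* reached 2.49 ± 2.07 RPM, *Cryba2* 2.38 ± 2.47, *Crygb* 0.634 ± 0.934 and *Crygd* 0.511 ± 1.04. Of the 9 neighboring pairs in this order, 3 did not differ beyond their spread in a two-sided permutation test of the paired differences (100000 sign flips). They were *Cryba4* and *Crybb1* (mean difference 0.309 RPM, p = 0.560), *Crygc* and *Cryba2* (0.108 RPM, p = 0.4496), and *Crygb* and *Crygd* (0.123 RPM, p = 0.151). *Crybb1* exceeded *Cryba1* by 1.16 RPM on average (permutation p = 0.0350) but in only 67 of 147 embryos. Likewise *Cryga* exceeded *Crygc* by 4.23 RPM on average (p = 1e-05, the smallest these permutations can give) but in only 62 of 147 embryos, its highest value being 74.8 RPM against 9.71 RPM.

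The members became detectable at different stages. An onset was taken as the earliest group of somite numbers from which on embryos thinned to 1000000 reads had on average at least a 50% chance of 1 read, leaving out shallower embryos. *Cryaa*, *Cryba1*, *Cryba4*, *Crybb1*, *Crybb3* and *Crygc* were already past this level in the youngest embryos (44 or fewer somites, n = 10 of 11 deep enough), with chances between 67.7% for *Crybb1* and 98.6% for *Crybb3*. *Cryba2* rose from 11.2% to 62.7% at 45 and 46 somites, and *Cryga* from 0 to 24.7% there and to 51.2% at 47 and 48 somites. *Crygb* and *Crygd* passed the level only at 53 or more somites, at 77.9% and 85.2% (n = 11). These onsets moved with depth. Without thinning *Crygb* passed from 49 and 50 somites on and *Crygd* from 51 and 52, and at 500000 reads *Crybb1* passed only from 45 and 46, *Cryba2* and *Crygc* from 47 and 48 and *Cryga* from 49 and 50. None of the 11 youngest embryos had a *Cryga* read. Across all 147 embryos no read was found for *Crygd* in 86, *Crygb* in 60, *Cryga* in 46, *Cryba2* in 21 and *Crygc* in 14. The other members lacked reads in few embryos, *Crybb1* in 4, *Cryaa* in 2, *Cryba1* and *Cryba4* in 1 each and *Crybb3* in 0. In sparse counts such a zero is no evidence of absence, since a member at 0.5 RPM gives about 1 read at the median depth. The earliest somite number with a *Cryga* read was 45, and 1 embryo at 54 somites still had none, though it had under 500000 reads. *Crygb*, whose mean level did not differ from that of *Crygd* beyond the spread, already had reads in 5 of the 11 youngest embryos, against 1 of 11 for *Crygd*.

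**Figure D1:**
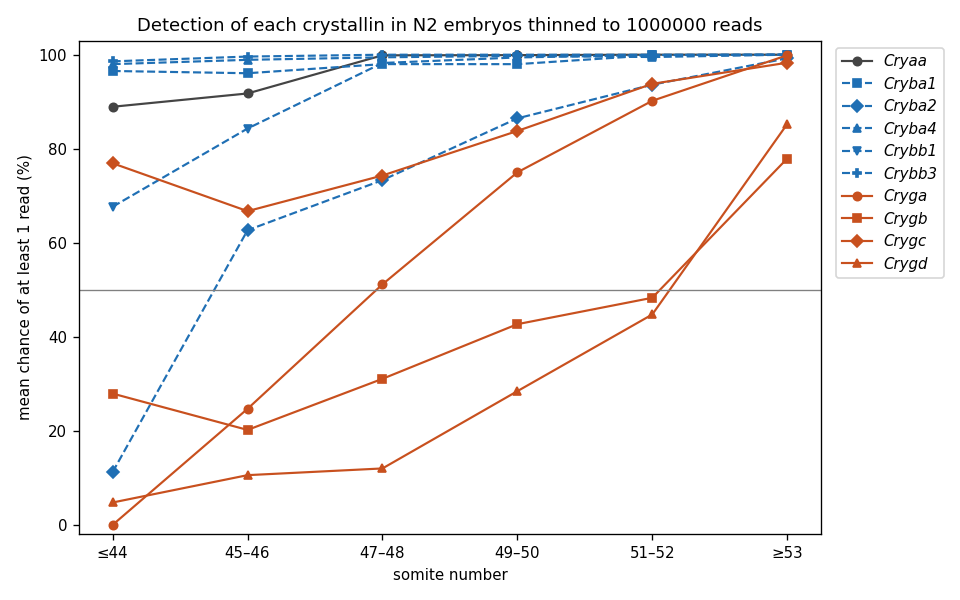
Detection of each member in N2 embryos thinned to 1000000 reads. The x axis gives somite number in 6 groups, the y axis the mean chance (%) that a thinned embryo holds at least 1 read, lines the 10 members (grey alpha, dashed blue beta, orange gamma), and the horizontal line 50%. *Cryga* starts at 0 and crosses 50% at 47 and 48 somites, while *Crygb* and *Crygd* cross it only at 53 or more.

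Expression of all 10 members rose with somite number over the N2 embryos. In whole embryos, more lens cells and more RNA per cell cannot be told apart. The sum of the 10 members ran from 10.6 to 44.7 RPM (median 19.8) in the youngest 11 embryos and from 88.9 to 440 RPM (median 197) in the oldest 14. By Spearman's correlation, all 6 members with a mean of at least 5 RPM rose with somite number at q under 0.05, where 14.0% of 10040 genes tested did so. With edgeR's quasi-likelihood test, which took genes with at least 0.5 RPM on average, all 10 rose at an adjusted p under 0.05, against 9.38% of 14195 genes. With lane as a factor in that fit all 10 members still rose, against 4.87% of genes. *Crygd* met the minimum of 0.5 RPM mainly through older embryos, averaging 0.0433 RPM at 44 or fewer somites and 1.83 at 53 or more. So did *Crygb*, averaging 0.293 and 2.20 RPM in these groups. *Cryga* likewise met that of 5 RPM, averaging 0.791 RPM at 47 and 48 somites and 11.9 at 51 and 52. *Crybb1* and *Cryba1* averaged 3.17 and 4.67 RPM at 45 and 46 somites and 15.9 and 12.2 at 51 and 52. The calls of these members are thus not independent of the minimums. With no minimum, all 10 members also rose in both tests.

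Among the alpha and beta members, *Cryaa* rose from a median of 1.79 RPM (0.441 to 7.78, n = 11) at 44 or fewer somites to 34.5 RPM (4.08 to 82.8, n = 14) at 53 or more. Its correlation with somite number was rho = 0.74 (Pearson's r = 0.67, and r = 0.66 without the 2 embryos farthest from the median stage, permutation p = 1e-05 for both, n = 147), and rho = 0.65 after lane was regressed out. Within the 2 flowcells rho was 0.77 and 0.70. The edgeR slope of *Cryaa* was 0.32 ± 0.03 log2 per somite (SE, adjusted p = 5.24e-18). *Crybb1* rose from a median of 0.898 RPM (0 to 3.79) to 21.8 RPM (6.84 to 46.6). Its rho was 0.74 (r = 0.67, and 0.65 without those 2 embryos, permutation p = 1e-05 for both, n = 147). Its slope was 0.38 ± 0.03 log2 per somite (edgeR adjusted p = 2.37e-19), and its level doubled every 2.60 somites in this fit. *Crybb3* started from the highest level, a median of 10.6 RPM (1.26 to 25.2), and reached 64.8 RPM (29.7 to 165), with a slope of 0.27 ± 0.03. *Cryba1*, which encodes both βA1 and βA3 chains, went from 2.99 to 17.0 RPM in the median with a slope of 0.23 ± 0.02, and *Cryba4* from 4.63 to 21.8 RPM with a slope of 0.21 ± 0.03 log2 per somite. *Cryba2* had no read in most of the youngest embryos (median 0 RPM, highest 0.476) and a median of 5.87 RPM (0 to 13.6) in the oldest, with a slope of 0.33 ± 0.03.

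The slopes of the gamma members ran from 0.21 for *Crygc* to 0.78 for *Cryga*. *Cryga* had no read in any of the 11 youngest embryos, a median of 3.35 RPM (0 to 36.3, n = 33) at 49 and 50 somites and 18.1 RPM (0 to 74.8, n = 14) at 53 or more. Its slope, 0.78 ± 0.06 log2 per somite (edgeR adjusted p = 1.60e-23), ranked 1 among the 14195 genes tested in that fit, a doubling every 1.28 somites, and its rho was 0.74 (r = 0.58, and 0.55 without the 2 embryos farthest in stage, permutation p = 1e-05 for both, n = 147). *Crygd* ranked 2 with a slope of 0.46 ± 0.05 (edgeR adjusted p = 4.63e-14), from a median of 0 RPM to 1.51 RPM (0 to 7.77). Both ranks are among genes that met the minimum of 0.5 RPM, which *Crygd* did mainly through older embryos. *Cryga* also met it through older embryos, averaging 0.307 RPM at 45 and 46 somites and 6.63 at 49 and 50. *Crygb* and *Crygc* had slopes of 0.27 ± 0.04 and 0.21 ± 0.03, the latter the smallest of the 10, and *Crygc* went from a median of 0.952 RPM (0 to 2.99) to 4.76 RPM (0 to 9.71). Differences between the slopes of members were not tested. With lane as a factor the slopes ran from 0.19 for *Cryba4* to 0.68 for *Cryga*, and *Crygb* kept the weakest support (edgeR adjusted p = 0.000899).

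**Figure D2:**
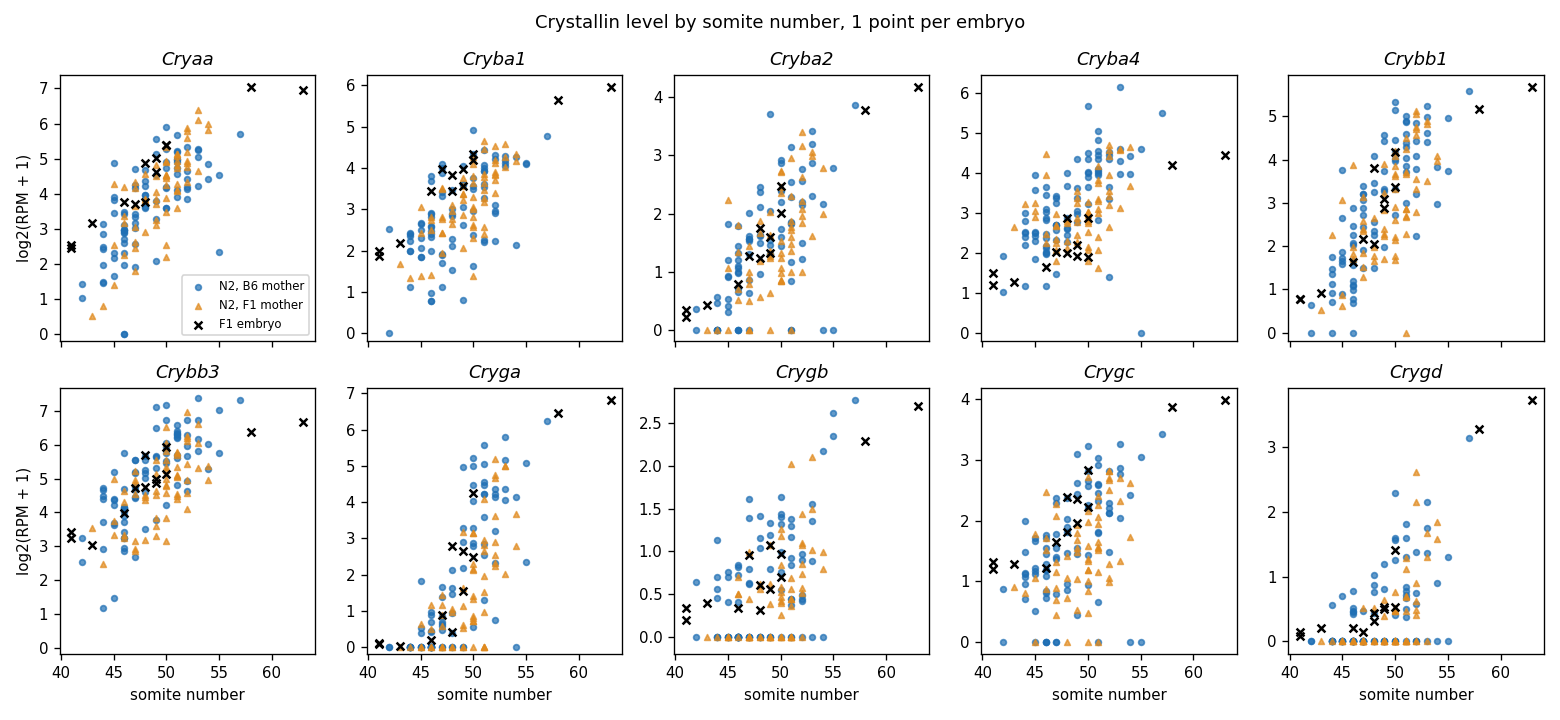
Level of each member by somite number. The x axes give somite number and the y axes log2(RPM + 1), with 1 point per embryo (circles N2 with B6 mother, triangles N2 with F1 mother, crosses F1). All panels rise, and *Cryga* leaves 0 only from 45 somites on in the N2 embryos.

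**Figure D3:**
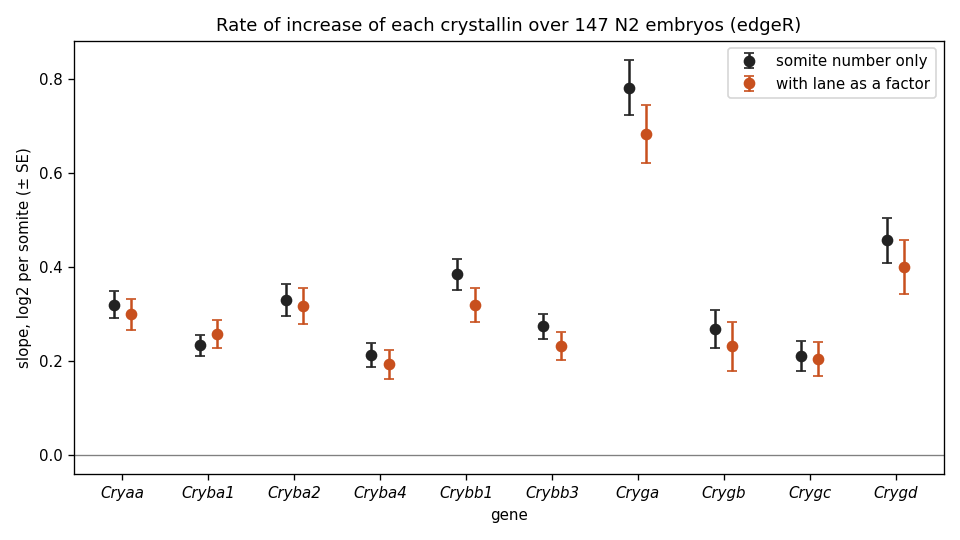
Slope of each member over 147 N2 embryos. The y axis gives the edgeR slope in log2 per somite, with bars for the SE, for the fit on somite number alone (black) and with lane as a factor (orange). *Cryga* has the steepest slope in both fits, 0.78 and 0.68.

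The deeper F1 libraries covered a longer range of stages, with litters at 41 to 43 somites (CastxB6 litter 1), 46 to 48 (CastxB6 litter 2), 48 to 50 (B6xCast litter 5) and 58 to 63 (B6xCast litter 3). In these F1 embryos cross, mother and stage cannot be told apart between crosses, so the older litter was compared with the younger within each cross, and each comparison also stands for 2 litters only. In the CastxB6 cross all embryos of litter 1 were sequenced in a GAIIx and a HiSeq run and all of litter 2 in HiSeq runs only, so that run and litter cannot be told apart there, whereas both B6xCast litters had the same kinds of run. *Cryaa* was at 4.60, 4.47, 4.82 and 8.03 RPM in the youngest litter and at 19.9, 12.7, 12.7 and 12.0 RPM in CastxB6 litter 2. In B6xCast litter 5 it was at 31.5, 40.9, 41.3, 28.5 and 23.8 RPM, and in litter 3 at 124, 111 and 130 RPM. No 2 of the litters overlapped for *Cryaa*, and how many other genes shared this was not counted. *Crybb3* was at 7.67, 8.52, 9.63 and 7.27 RPM, then 22.7, 14.7, 25.8 and 25.6 RPM, then 28.4, 34.03, 60.6, 50.8 and 30.95 RPM, and finally 100.9, 65.5 and 82.9 RPM in the same order of litters. *Cryga* had 2, 3, 2 and 1 reads in the 4 youngest embryos, each at or under the floor of 3 reads, and 8, 4, 8 and 16 reads in CastxB6 litter 2. It then stood at 5.30, 4.55, 17.9, 5.86 and 1.92 RPM in B6xCast litter 5 and at 112, 80.1 and 87.1 RPM in litter 3, second only to *Cryaa* there. *Crygd* was at 0.442, 0.448, 1.66, 0.348 and 0.417 RPM in litter 5 and at 12.2, 6.16 and 8.69 RPM in litter 3.

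In the B6xCast cross all 10 members were higher in the older litter without overlap, as were 26.8% of 14170 genes, and all 10 passed edgeR's test (adjusted p under 0.05), as did 7.51% of genes. The largest differences were 3.70 ± 0.40 log2 (SE) for *Crygd* (edgeR adjusted p = 0.000124) and 3.57 ± 0.49 for *Cryga* (0.000553), and the smallest was 0.85 ± 0.26 for *Crybb3* (0.0369). *Crygd* met the minimum of 0.5 RPM over the 16 embryos mainly through litter 3, where it averaged 9.03 RPM. It averaged 0.662 RPM in litter 5 and 0.0874 and 0.188 RPM in CastxB6 litters 1 and 2, so its call is not independent of that minimum. The other members differed by 1.56 log2 (*Crygc*) to 2.44 log2 (*Crygb*). *Crybb3* lost its call in 6 of the 8 fits that left out 1 embryo. In the CastxB6 cross 7 members were higher in the older litter without overlap, as were 21.3% of genes, and the same 7 passed edgeR's test, as did 16.1% of genes. *Cryba2* (2.08 ± 0.39 log2, edgeR adjusted p = 0.00114), *Crybb1* (1.98 ± 0.35, 0.000864) and *Cryba1* (1.93 ± 0.23, 7.22e-05) had larger differences than *Crybb3* (1.31 ± 0.27, 0.00200), *Cryaa* (1.27 ± 0.22, 0.000771) and *Cryba4* (0.85 ± 0.31, 0.0455), though this order was not tested. *Cryga* had 36 reads in the older and 8 in the younger litter, a ratio of pooled RPM of 7.60 (95% interval 3.47 to 18.9, counting error only), and its call (edgeR adjusted p = 0.0429) was lost in 7 of the 8 fits without 1 embryo, *Cryba4*'s in 6. *Crygb*, *Crygc* and *Crygd* overlapped between these litters and did not pass, with pooled ratios of 2.09 (1.296 to 3.38), 1.47 (1.18 to 1.82) and 2.08 (0.937 to 4.70).

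**Figure D4:**
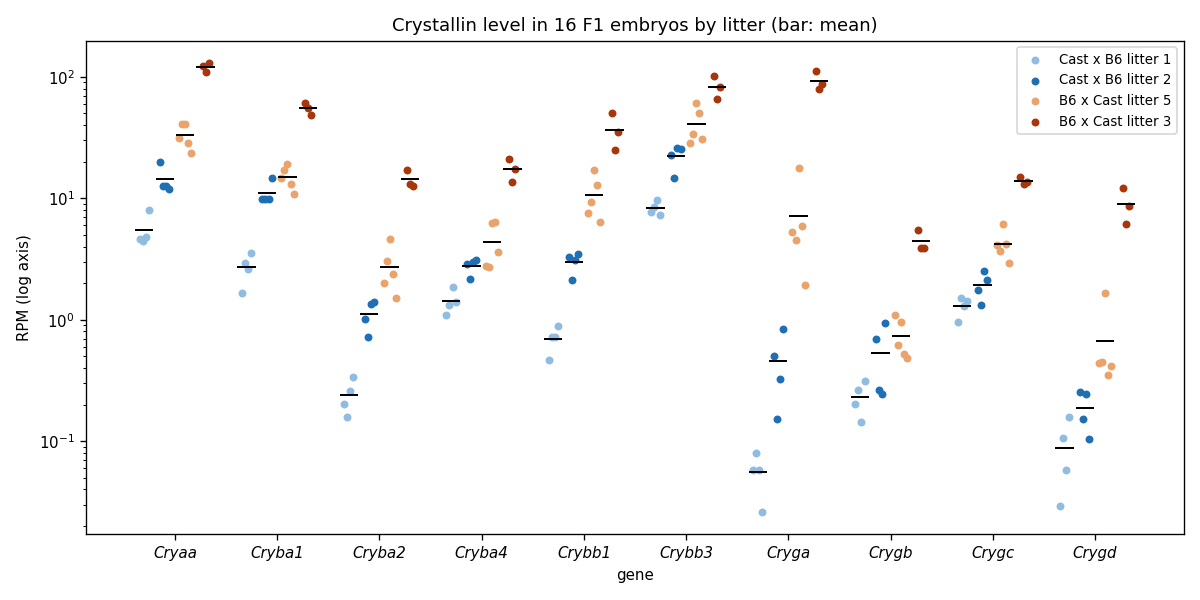
Level of each member in the 16 F1 embryos by litter. The y axis gives RPM on a log axis, points are embryos and bars litter means. *Cryaa* rises from 4.47 to 8.03 RPM in the youngest litter to 111 to 130 RPM in the oldest.

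The make-up of the crystallin reads shifted with stage. Over 145 N2 embryos with at least 20 reads of the 10 members, beta crystallins made up 81.9% ± 10.3 (SD, n = 10) at 44 or fewer somites and 67.9% ± 10.1 (n = 14) at 53 or more. Gamma crystallins made up 6.11% ± 1.88 and 12.8% ± 6.35 in the same groups, and *Cryaa*, the alpha member, 12.0% ± 8.94 and 19.2% ± 10.5. *Cryga* alone went from 0 to 9.10% ± 5.27, while *Crybb3* had shares of 42.4% ± 17.4 and 36.5% ± 10.2 in the first and last groups. In the oldest F1 litter gamma crystallins reached 27.8%, 26.7% and 25.7% of the crystallin reads, against 6.92% to 15.2% in the younger litter of the same cross and 4.29% to 9.75% in the CastxB6 embryos. These shares are a description, since each rise in 1 class lowers the others.

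Levels of the members also followed each other across N2 embryos, with a median rho of 0.61 over the 45 pairs (0.30 to 0.87, n = 147 embryos that share stage, litters and lanes), and 0.57 after lane was regressed out. The closest pair was *Crybb1* and *Crybb3* (rho = 0.87), followed by *Crybb1* and *Cryga* (0.85), while the neighbors *Crygb* and *Crygc* were the least alike (0.30). Among 10001 other genes, the 10 whose RPM was most like the summed crystallin RPM over 154 embryos had rho from 0.77 to 0.82. They were led by *Tnnt1* (slow skeletal troponin T, 0.82), *Mia1* (a cartilage-secreted protein, 0.82) and *Mybph* (a myosin binding protein, 0.81), and further held *Tspo2*, *Mirlet7b*, *S100b* (a calcium-binding protein of glia and cartilage), *Lmna* (lamin A/C), *Pdia2*, *D18Ertd653e* and *Krt17* (an epithelial keratin). Each of the 10 also rose with somite number (rho from 0.58 to 0.78). Only genes averaging 5 RPM or more were ranked, a minimum that most of the other genes of lens structure did not reach.

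Other lens genes were examined beside the members. Of 17 further genes of lens structure, all were in the tables, 10 passed the minimum of 0.5 RPM, 7 rose and none fell (edgeR, adjusted p under 0.05), with a median slope of 0.06 log2 per somite over the 10. Of the 6 with the highest level, *Cryge* (gamma E crystallin) rose by 0.30 ± 0.03 log2 per somite (edgeR adjusted p = 7.28e-16) and *Crygn* by 0.21 ± 0.03 (1.30e-08). *Cryab* (αB-crystallin, also made in heart and muscle) rose by 0.06 ± 0.02 (0.0222), and the beaded filament genes *Bfsp1* and *Bfsp2* by 0.06 ± 0.02 (0.0361) and 0.06 ± 0.02 (0.0215). *Caprin2* had a slope of -0.11 ± 0.05 (0.0894). Their summed level over all 17 genes was 30.7 to 67.4 RPM (median 49.1) in the youngest group and 24.5 to 115 RPM (median 85.8) in the oldest, and with lane as a factor 4 of the 10 rose. *Cryab*, *Bfsp1* and *Bfsp2* were the 3 that then no longer passed (edgeR adjusted p = 0.0678, 0.404 and 0.294). Of 12 lens regulators 11 were in the tables and 10 were tested, of which only *Pitx3*, a lens transcription factor that is also made in midbrain neurons and muscle, rose (0.14 ± 0.02 log2 per somite, edgeR adjusted p = 2.50e-10). *Meis1*, *Sox2*, *Six3*, *Gata3* and *Sox1* had slopes between -0.07 and 0.03 and did not pass, and *Foxe3*, which marks the lens vesicle and epithelium, had no read in any of the 147 embryos. Whether *Foxe3* reads were lost in mapping or filtering was not tested, so this is no evidence of absence. The summed level of the regulators was 68.2 to 215 RPM (median 124) in the youngest group and 72.01 to 253 RPM (median 102.8) in the oldest. With lane as a factor *Sox2* fell (edgeR adjusted p = 0.0143). Neither *Pax6* (-0.08 ± 0.04, adjusted p = 0.140) nor *Maf* (-0.04 ± 0.04, 0.529) passed, and both are also made outside the eye. The members' slopes, 0.21 to 0.78, thus lay above that of each regulator tested in whole embryos. What each regulator did within the lens was not measured.

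No marker of the other eye tissues passed as rising in the fit on somite number alone. These too are whole-embryo levels, so levels within the eye were not measured. Of 8 genes of the neural retina 6 were tested and none rose or fell, their summed level being 29.96 to 162 RPM (median 52.8) in the youngest group and 41.0 to 181 RPM (median 47.5) in the oldest, and with lane as a factor *Sfrp2* rose (edgeR adjusted p = 0.00242). Of these, *Rax* and *Six6* were at 6.54 ± 2.72 and 2.35 ± 1.72 RPM on average (SD, n = 147). Of 8 genes of the retinal pigment epithelium 4 were tested, none rose and *Otx2* fell (-0.15 ± 0.04 log2 per somite, edgeR adjusted p = 0.0101), and their summed level was 3.79 to 26.4 RPM (median 17.1) and 4.08 to 21.5 RPM (median 13.2). With lane as a factor *Otx2* no longer passed (edgeR adjusted p = 0.0813). *Pmel*, a melanosome protein, had a slope of 0.01 ± 0.02 (adjusted p = 0.829). The part that the amount of eye tissue in each embryo had in the members' rise was not tested.

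Slopes on somite number were compared between the backcrosses to ask whether timing depended on the mother. The slope differed for 2 of the 10 members, where 41.0% of all genes were called. It was lower in embryos of F1 mothers for *Cryba4*, 0.11 ± 0.04 against 0.28 ± 0.03 log2 per somite (difference -0.17 ± 0.05, edgeR adjusted p = 0.00738), and higher for *Crygd*, 0.70 ± 0.09 against 0.43 ± 0.06 (difference 0.27 ± 0.11, 0.0459). Of the 14 lanes 8 held embryos of B6 mothers only, 5 held embryos of F1 mothers only and 1 held both. With lane as a factor none of the 10 passed in edgeR (1 at an unadjusted p under 0.05), and 1 of all 14195 genes did. The difference was then 0.40 ± 0.14 for *Crygd* (edgeR adjusted p = 0.707) and -0.07 ± 0.07 for *Cryba4* (0.948), so that the estimate for *Crygd* was not smaller than without lane. For the level itself, none of the 6 members tested differed between the 89 embryos of B6 and the 65 of F1 mothers in a two-sided Mann-Whitney test (Bonferroni, 0 members at an unadjusted p under 0.05), where 5.03% of 9733 genes did. *Crybb3* was at 44.2 ± 36.3 and 32.9 ± 23.8 RPM (SD) and *Cryga* at 8.20 ± 13.6 and 4.57 ± 8.03 RPM. With somite number as a covariate in edgeR, *Crybb3* was higher in embryos of B6 mothers by 0.58 ± 0.15 log2 (edgeR adjusted p = 0.00111) and *Cryga* by 1.25 ± 0.30 (0.000470), the 2 members called at 0.01 over the 147 embryos, where 9.01% of 9762 genes were higher with B6 mothers (4 of 6 members at an unadjusted p under 0.05). Lane and mother cannot be told apart in this comparison.

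Allele fractions depended on how many reads crossed a SNP. The authors counted votes for either allele, and the B6 allele fraction (BAF) is the share of B6 votes, 0.5 for equal expression. *Crybb3* had 75.6 votes per 100 reads in the F1 embryos, *Crygb* 73.01, *Crygc* 69.8, *Crybb1* 42.6, *Crygd* 39.4 and *Cryga* 19.3. *Cryba2* had 7.35, *Cryba1* 3.82 and *Cryaa* 0.558 per 100 reads, and *Cryba4* had 2 votes in all 16 embryos, so its alleles were not measured.

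The Cast allele of *Crybb3* gave most of the transcripts in the youngest embryos, and the share of the B6 allele was higher in older ones. In CastxB6 litter 1 (41 to 43 somites) the BAF of *Crybb3* was 0.279, 0.348, 0.297 and 0.354 over 181 to 249 votes per embryo. It was 0.384, 0.314, 0.313 and 0.364 in CastxB6 litter 2, then 0.383, 0.444, 0.443, 0.407 and 0.389 in B6xCast litter 5, and 0.489, 0.458 and 0.510 in B6xCast litter 3 (58 to 63 somites). All 13 embryos of the first 3 litters lay below each embryo of the last, but across crosses stage cannot be told apart from cross. How many other genes shared this separation was not counted. Within the B6xCast cross the older litter was higher by 0.0721 without overlap (exact two-sided permutation test, p = 0.0357, the smallest that 3 against 5 embryos allow), which 3.20% of 5628 genes with 20 votes in every F1 embryo also were. Within the CastxB6 cross, the difference of 0.0242 was not larger than the spread (exact permutation p = 0.400). These litters overlapped (3.89% of genes were higher in the older litter without overlap).

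In the heterozygous N2 embryos the same gene could be followed somite by somite. The pooled BAF of *Crybb3* was 0.214 at 44 or fewer somites (95% Wilson interval 0.172 to 0.263, 309 votes in 7 embryos), 0.340 at 45 and 46 (0.298 to 0.385), 0.366 at 47 and 48 (0.336 to 0.397), 0.419 at 49 and 50 (0.400 to 0.439), 0.436 at 51 and 52 (0.413 to 0.460) and 0.466 at 53 or more (0.435 to 0.497, 970 votes in 7 embryos). These intervals cover counting error only. The youngest F1 litter (CastxB6 litter 1) had a higher pooled BAF, 0.319 (0.289 to 0.351), than the N2 embryos at 44 or fewer somites. CastxB6 litter 2 was at 0.340 (0.316 to 0.364), so the steep early rise of the N2 embryos was not seen between these F1 litters. This difference between F1 and N2 embryos was not tested. Over the 68 embryos with at least 20 votes, BAF rose with somite number (rho = 0.52, r = 0.56, and r = 0.48 without the 2 embryos farthest in stage, permutation p = 2e-05 for rho and r), and *Crybb3* was the only member with enough votes to be tested. Its q across all genes was 0.00846, and 0.150% of 3341 genes rose at q under 0.1. Within the flowcells rho was 0.50 (n = 33) and 0.50 (n = 35), in embryos of B6 mothers 0.63 (n = 40) and of F1 mothers 0.32 (n = 28). After lane was regressed out rho was 0.37 and no longer passed across genes (q = 0.601). Over the means of 27 litters rho was 0.57 (permutation p = 0.00215). Both alleles rose in absolute terms, the B6 allele from 3.29 ± 2.62 to 43.8 ± 21.996 votes for every 1000000 reads (SD, n = 7 each) and the Cast allele from 13.0 ± 5.85 to 49.2 ± 17.4 between the first and last groups.

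**Figure D5:**
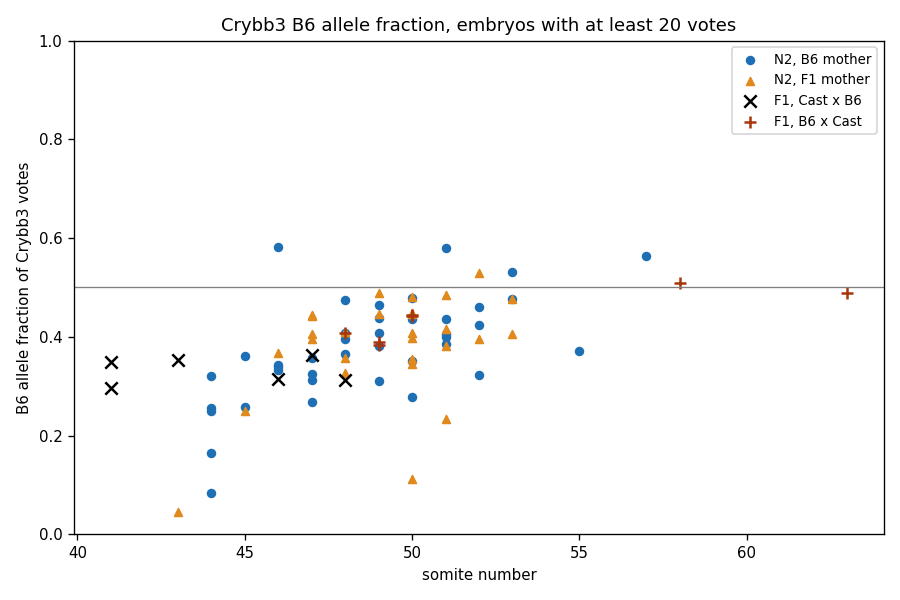
BAF of *Crybb3* by somite number. The x axis gives somite number, the y axis BAF, and points are heterozygous N2 embryos with at least 20 votes (circles B6 mother, triangles F1 mother) and F1 embryos (x CastxB6, + B6xCast), with equal expression at the line at 0.5. Pooled BAF of the N2 embryos goes from 0.214 in the youngest group to 0.466 in the oldest.

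*Cryga* had far fewer votes. Its pooled BAF in heterozygous N2 embryos was 0.297 (95% Wilson interval 0.213 to 0.397, 90.99 votes) at 49 and 50 somites, 0.447 (0.374 to 0.522, 170 votes) at 51 and 52 and 0.509 (0.381 to 0.636, 55.0 votes) at 53 or more, and under 10 votes came from each earlier group. In F1 embryos it was 0.336 (0.262 to 0.418) in B6xCast litter 5 and 0.458 (0.435 to 0.481) in litter 3. With only 5 N2 embryos at 20 votes it was not tested against stage. *Crybb1*, with 18 such embryos, was at 0.571 over all heterozygous N2 embryos (0.543 to 0.600), at 0.642 (0.582 to 0.698) at 51 and 52 somites and at 0.472 (0.413 to 0.538) at 53 or more, and with the minimum lowered to 10 votes its relation to stage did not pass (rho = -0.22, n = 36, q = 0.806). *Crygd* had more B6 than Cast votes, with a BAF of 0.671 (0.619 to 0.719, 337 votes) in the oldest F1 litter and 0.773 (0.566 to 0.899, 22 votes) in N2 embryos, from reads that are few and open to loss to *Cryge*.

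For allele-specific expression over all F1 and heterozygous N2 embryos, 5 members had 20 votes in each cross, and only *Crybb3* was called (paired parametric test of the votes, run across all genes with Bonferroni correction, adjusted p = 6.06e-10, n = 94 embryos), where 18.9% of 9084 genes were. Its pooled BAF was 0.425 over 19148 votes. *Crybb1* (0.567), *Cryba1* (0.585), *Crygb* (0.537) and *Crygc* (0.548) lay on the B6 side and did not pass.

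Total expression was then compared between N2 embryos heterozygous at the gene's own position and those homozygous for B6. *Crybb3* was higher in heterozygous embryos, 46.0 ± 33.8 RPM (SD, n = 74) against 32.6 ± 30.2 RPM (n = 73), a difference of 0.53 ± 0.12 (SE) on the log2(RPM + 1) scale after lane and somite number were removed (rank-sum q = 3.81e-05 across genes). It was the only one of the 6 members tested to pass at 0.01, where 18.2% of 9762 genes did. The groups were alike in stage, at 48.7 and 48.9 somites on average. In bands chosen after the values were seen, the difference was 0.77 ± 0.24 at 46 or fewer somites (permutation p = 0.00414, 18 against 21 embryos), 0.67 ± 0.18 at 47 to 50 (permutation p = 0.000660, 35 against 25) and 0.15 ± 0.19 at 51 or more (permutation p = 0.434, 21 against 27). The decline itself, a difference in slope of -0.07 log2 per somite between heterozygous and homozygous embryos, was not larger than the spread (permutation p = 0.110). *Cryba4*, with the same genotype as *Crybb3* in 146 of the 147 embryos, went the other way, at 8.75 ± 7.90 RPM in heterozygous and 12.1 ± 10.5 RPM in homozygous embryos (difference -0.43 ± 0.12, q = 0.0110), just short of the threshold. *Crybb1*, between them in position and with the genotype of *Crybb3* in 146 embryos as well, was at 10.0 ± 9.90 and 10.1 ± 9.72 RPM (0.05 ± 0.14, q = 0.951). *Cryaa* (-0.22 ± 0.14, q = 0.341), *Cryga* (0.27 ± 0.19, q = 0.316) and *Cryba1* (0.02 ± 0.12, q = 0.802) did not pass.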

How the data were processed

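The reads of whole E11.5 embryos were trimmed, mapped by the authors with Bowtie2 against mm9 and against mm9 carrying the Cast SNPs, filtered on the second-best hit and deposited as raw counts per RefSeq gene. The authors also deposited allele votes, in which a read over several SNPs splits its vote among them, so that values need not be whole (handled here in the unit of expected counts), and a genotype code per gene and embryo, 1.0 for B6/B6, 0.5 for heterozygous and 0 read here as not called. The 2 runs of each F1 embryo share a column. Each N2 table held 8 further columns whose samples have no cross in the labels, which were not used, and 6 embryos without genotypes entered only an alternative. Counts were divided by each embryo's total to give RPM.

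Slopes and litter contrasts were tested with edgeR 4.0.16 (TMM, quasi-likelihood, Benjamini-Hochberg adjustment, at least 0.5 RPM), with DESeq2 1.42.0 as an alternative, and the SE was taken from the F statistic. Spearman's correlations, rank-sum and Mann-Whitney tests (at least 5 RPM) and the paired t-test of alleles (at least 20 votes per cross) ran over all genes in Python 3.11.15 with scipy 1.17.1, at a q under 0.05 for expression and 0.1 for BAF, a Bonferroni p under 0.01 for allele-specific expression (with BAF outside 0.45 to 0.55) and for the mother, and a q under 0.01 for genotype. BAF against stage took at least 20 embryos of 20 votes. Permutation tests used 100000 resamples or exact enumeration. The edgeR slope, Spearman's correlations, the rank-sum and Mann-Whitney tests and the paired test of alleles were tried on simulated data. The other edgeR fits, the permutation tests, the onsets and the sequence counts were not. Coordinates are mm9 from GENCODE M1, promoter sequences are RefSeq's on GRCm38.p6, and all 10 members matched in both. The members and the gene lists were chosen with earlier results of these data known. Named genes were the 10 members, the 6 tested genes of highest level in each marker list (*Pax6* and *Maf* were added after their values were seen), and the 10 genes most like the summed members. Embryos were the replicates, embryos of a litter share a mother, and p-values do not account for this.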

Additional observations from a re-analysis of the deposited data

Results flagged for a closer look

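Single F1 embryos stood apart from their littermates (a gap to the next embryo above Dixon's 95% limit for the litter size) for 5 of the 33 sets of values examined, of which chance gives about 1 in 20. In B6xCast litter 5, embryo 5 had 17.9 RPM of *Cryga* (next 5.86) and 1.66 RPM of *Crygd* (next 0.448); it had 50 somites, as did embryo 4. Without it, the older litter exceeded litter 5 by 4.25 log2 for *Cryga* and 4.26 for *Crygd*. *Cryaa* was at 8.03 RPM in embryo 4 of CastxB6 litter 1 (next 4.82), the embryo with 43 somites where 2 others had 41, and at 19.9 RPM in embryo 2 of CastxB6 litter 2 (next 12.7), whose somite number is not labelled. *Cryba1* was at 14.7 RPM in embryo 6 of CastxB6 litter 2 (next 9.89).

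The slope on somite number differed between embryos of F1 and of B6 mothers, by edgeR's interaction test, for *Cryba4* (-0.17 log2 per somite, F1 minus B6 mothers) and *Crygd* (0.27). Of all genes 41.0% were called in this test. Lanes mostly held embryos of 1 kind of mother, and with lane as a factor neither gene passed (edgeR adjusted p = 0.948 and 0.707).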

How the results depend on the processing

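Every member tested under an alternative for Spearman's correlation or edgeR's slope rose and passed there. The alternatives differed in how many members they tested. Most of Spearman's tested the 6 members above 5 RPM, 5 were tested with F1 mothers only, 8 with a minimum of 1 RPM, and 10 with no minimum or with a minimum of 0.5 RPM and lane regressed out. In edgeR 6 were tested with a minimum of 5 RPM and 10 otherwise. Leaving out 1 F1 embryo gave 5 to 9 members for CastxB6 and 9 to 10 for B6xCast. The stage trend of *Crybb3* BAF passed for 0 members with lane regressed out, with F1 mothers only, and, in settings chosen after seeing the data, over litter means or in either flowcell alone. Its rho stayed between 0.32 and 0.63 over all settings, and 1 or 2 of all genes passed in those 5 settings, against 10. Its allele call became 0 in F1 embryos alone, though the BAF was 0.435. At its own genotype *Crybb3* did not pass under Bonferroni or with nothing regressed out (0 members), and 2 members passed, *Cryba4* with it (q = 0.00809), when mother was also removed. The mother's genotype gave 2 members in edgeR with somite number as a covariate, and the difference of slopes by mother gave 0 with lane as a factor. The cause of these changes was not tested. Over all genes, the calls of Spearman's test (2200) became 1150 with lane, 5162 with B6 mothers, 4116 in flowcell 2 and 174 over litter means, with 982 of 2038 rising under TMM scaling against 1405 of 2200 as reported, those of edgeR's slope (2817) became 1242 with lane and 4233 with mother, and those of the interaction (5824) became 1 with lane. Allele calls (1714) became 1085 in F1 embryos and 2889 under Benjamini-Hochberg, BAF trends (10) became 17 and 5 at 10 and 50 votes and 63 with B6 mothers, genotype calls (1772) became 719 and 1087, mother calls (490) became 2077, 2146 and, over litter means, 0, and B6xCast litter calls (2229) fell to 957 without embryo 3 of litter 3. For single members, 436 further values stayed the same, with direction and call kept or, for median RPM, a change smaller than the SD. Another 29 lost the call and 5 gained it. The sign changed in 4 values that passed in neither setting, the BAF of *Crygb* minus 0.5 (0.037 to -0.0425 in N2 embryos alone), the genotype difference of *Crybb1* (0.0453 log2 to -0.106 RPM with nothing regressed out), the mother's difference of *Cryba1* (-0.167 to 0.0113 in edgeR) and the interaction of *Cryba2* (-0.0352 to 0.0290 with lane). Detection from the youngest group on held for 4 members when embryos were thinned to 500000 reads, against 6. No paired analysis was possible because replicate numbers only name embryos within a group. At the median N2 depth members under 1 RPM rest on few reads, and *Cryaa* and *Cryba4* had too few SNP-covering reads to compare alleles.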
